A study of Mus musculus with 6 samples.

Results

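The enzymes that write, copy and erase methyl groups on DNA cytosines were compared between bone marrow B cells with Prmt5 deleted and control cells. The set holds 7 genes, chosen by name: the DNA methyltransferases Dnmt1, Dnmt3a and Dnmt3b, the methylation reader Uhrf1 and the dioxygenases Tet1, Tet2 and Tet3. All 7 were found, 1 row each, among the 21307 rows of the deposited table, and none was listed at 0 in either condition. Between the conditions, the copying arm was lower in 4-OHT: Uhrf1 stood 1.88-fold lower and Dnmt1 1.42-fold lower. The level of Dnmt3a was 1.17-fold higher, and Tet2 and Tet3 were 1.04-fold and 1.03-fold higher, with Tet2 turning lower under quantile normalization. Dnmt3b, a low gene, stood 1.18-fold lower. No member was 2-fold different, and neither were most of the 10856 rows compared. Of those rows, 2.58% were at least 2-fold lower and 10.4% at least 2-fold higher.

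DNA methylation in mammals sits mainly on the cytosines of CpG pairs. After replication only the parental strand carries it, and UHRF1 binds such hemimethylated sites, modifies histone H3 and brings in DNMT1, which methylates the daughter strand. DNMT3A and DNMT3B methylate sites that had none, and the TET enzymes oxidise methylcytosine to 5-hydroxymethylcytosine and further products, which replication dilutes or the glycosylase TDG cuts out. In blood cells DNMT3A and TET2 are known as genes often mutated in leukaemia and lymphoma, and TET2 and TET3 act in B-cell development.

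The 4-OHT group (3 libraries) held cells exposed for 24 h to 50 nM 4-hydroxytamoxifen (4-OHT), which activates the Cre recombinase, and then cultured for 5 days without it. The ethanol group (3 libraries) held cells given ethanol in its place. Both groups came from C57BL/6 x 129S1/SvlmJ mice 6 to 8 weeks old and not yet with tumours, and carried the same alleles: the E-mu-myc transgene, which drives the oncogene Myc from an immunoglobulin heavy chain enhancer, floxed Prmt5 (Prmt5F/F) and CreER. Both were grown with interleukin 7 at 5 ng/ul. Effects of 4-OHT or of active Cre that do not pass through Prmt5 cannot be told apart from those of the deletion in this design. The titles call the ethanol libraries WT and the 4-OHT libraries PT, and the text of the series contrasts wild-type mice with pre-tumoral ones. The treatment labels and the table's own condition names give ethanol and 4-OHT, and those names are used here.

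The table gives 1 FPKM per gene and condition, that is, fragments scaled to transcript length and to the number of mapped fragments. Because of the scaling to length, levels of different genes can be set side by side. The 3 libraries of a condition are not separated, so no value has a replicate error, no difference has a replicate check or a p-value, and depth is unknown. Each ratio below is the log2 quotient, 4-OHT over ethanol, after 1 was added to both FPKM values, a scale that understates differences of low genes. Comparison was limited to the 10856 rows whose 2 values averaged 1 FPKM or more and were both above 0. Of these, 2.58% were at least 2-fold lower in 4-OHT and 10.4% at least 2-fold higher, and their median ratio was -0.07. The targeted gene, Prmt5, stood at 5.71 FPKM in 4-OHT and 41.6 FPKM in ethanol. In bulk RNA, fewer cells of a type and less RNA per cell cannot be told apart.

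Uhrf1 (chromosome 17, 56442760 to 56462909, mm9) was the most abundant member in both conditions, at 75.5 FPKM in 4-OHT and 142.5 FPKM in ethanol. The 4-OHT value was lower by 67.0 FPKM, and the log2 ratio was -0.91. Of all compared rows, 3.71% had a lower ratio, and of the 546 rows with a mean within 1.5-fold of that of Uhrf1, 5.49% did. Uhrf1 was the single member of the 6 compared that stood at least 1.5-fold lower, a side that held 12.8% of all compared rows. None stood 1.5-fold higher, against 19.5% of all rows. Myc itself, at 213 FPKM in 4-OHT and 402 FPKM in ethanol, also had a ratio of -0.91.

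Dnmt1 (chromosome 9, 20711650 to 20764332, mm9), the maintenance methyltransferase, stood at 44.9 FPKM in 4-OHT and 64.0 FPKM in ethanol, a log2 ratio of -0.50. Of all compared rows, 17.1% had a lower ratio. For each unit of Dnmt1 there were 1.68 units of Uhrf1 in 4-OHT and 2.22 in ethanol. The recruiting factor thus stood lower by more than the enzyme it recruits, in values that carry no replicate error.

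**Figure D1:**
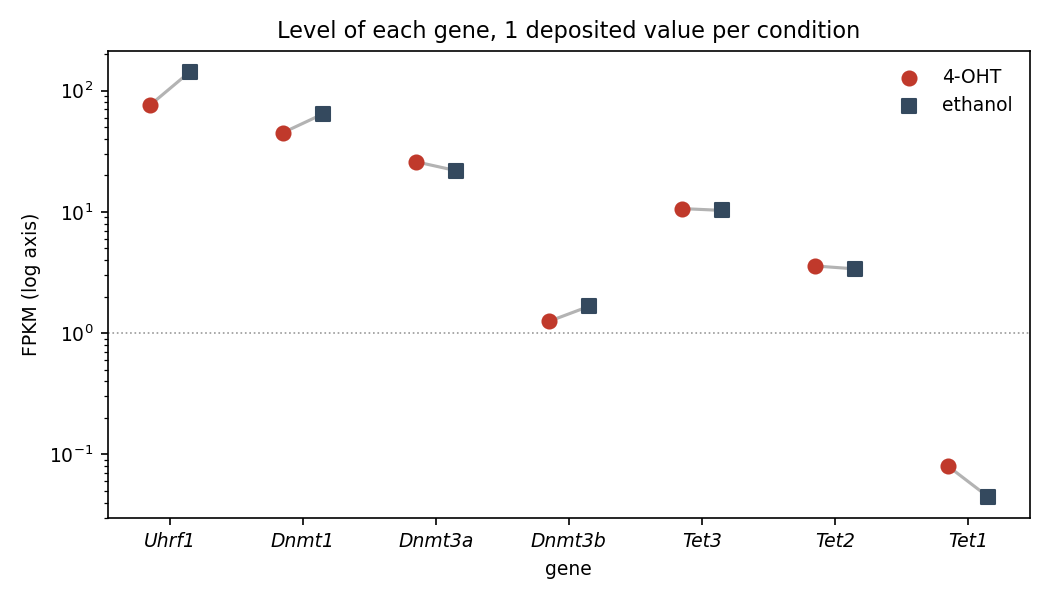
FPKM of each gene on a log axis, 4-OHT (red circles) left of ethanol (dark squares), 1 deposited value per condition; the dotted line marks 1 FPKM. Uhrf1 and Dnmt1 stand lower in 4-OHT, the pairs of Dnmt3a, Tet3 and Tet2 lie nearly level, and Tet1 lies below 0.1 FPKM in both conditions.

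Because Uhrf1 and Dnmt1 were lower together, the 250 bases before each annotated start of the 7 genes (12 windows, RefSeq, GRCm38.p6) were read for the letters TTT, a pair of letters that are each C or G, and CGC, on both strands. This is the form of site that E2F factors, transcription factors of S phase, bind. A match stood in 1 window of Uhrf1 and 1 window of Dnmt1 and in none of the windows of the other 5 genes. Of all 32851 promoter windows of that length, 1.86% held one, as did 2.16% of the 27025 genes with a window. Such letters were not particular to these members: they also stood in 5 of the 20 S phase genes that had a window (of 26 listed) and in 1 of 13 genes of G2 and mitosis. The stretches of 30 bases around both matches are shown, 5′ to 3′ on the strand of the gene, because no window of another member held such letters; capitals mark the match, which reads in opposite directions in the pair.
Uhrf1 (chr17:56304117-56304146, plus strand): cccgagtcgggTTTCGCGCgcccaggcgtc
Dnmt1 (chr9:20952824-20952853, minus strand): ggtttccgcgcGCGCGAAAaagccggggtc

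The Uhrf1 match began 185 bases before the annotated start. The whole window, chr17:56304063-56304312 on the plus strand, is given as context for that gene and held 30 CpG pairs, against a median of 6 over all windows. High counts were common among the members. The highest of a gene was 51 for Tet2, 40 for Dnmt3a, 26 for Dnmt1, 21 for Dnmt3b, 17 for Tet3 and 15 for Tet1. Among genes with more than 1 window, the lowest was 2 for Dnmt1, 10 for Uhrf1 and 15 for Dnmt3a.
Uhrf1: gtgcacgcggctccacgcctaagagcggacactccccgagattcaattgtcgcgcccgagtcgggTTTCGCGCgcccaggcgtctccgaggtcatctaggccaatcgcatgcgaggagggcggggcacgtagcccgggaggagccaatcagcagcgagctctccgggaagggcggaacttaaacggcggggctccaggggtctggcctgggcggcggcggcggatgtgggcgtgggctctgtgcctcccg

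The Dnmt1 match began 219 bases before the innermost of 3 annotated starts, and it lay within exon 1 of the GENCODE transcript Dnmt1-201, which starts further upstream. Which start the cells used is not in the table. The MYC-type E-box CACGTG stood in 1 of the 12 windows, the third of Dnmt3a, and in 6.02% of all windows. Binding was not measured, so a match describes letters only.

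The de novo enzymes did not follow Uhrf1 and Dnmt1 as a pair. Dnmt3a (chromosome 12, 3806980 to 3914443, mm9) stood at 25.9 FPKM in 4-OHT and 21.9 FPKM in ethanol, a log2 ratio of 0.23. This was the highest ratio of the compared members, and 68.4% of all compared rows had a lower one, so it is well inside the spread of all genes. Dnmt3b (chromosome 2, 153475190 to 153513466, mm9) was near the lower limit, at 1.25 FPKM in 4-OHT and 1.66 FPKM in ethanol (log2 ratio -0.24). At that level the pseudocount shapes the ratio: the authors' deposited table, without one, lists -0.41. Dnmt3l, the cofactor of both enzymes that has no catalytic activity of its own and is best known from germ cells, stood at 0.777 FPKM in 4-OHT and 0.134 FPKM in ethanol, too low to be compared.

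Within the methyltransferase family the balance between genes differed in size between conditions, without a replicate check. Dnmt1 made up 62.3% of the summed FPKM of the 3 genes in 4-OHT and 73.1% in ethanol. Dnmt3a made up 35.9% in 4-OHT and 25.0% in ethanol, and Dnmt3b 1.73% in 4-OHT and 1.89% in ethanol. For each unit of Dnmt3a there were 1.73 units of Dnmt1 in 4-OHT and 2.92 in ethanol. The family sum was 72.1 FPKM in 4-OHT and 87.6 FPKM in ethanol.

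**Figure D2:**
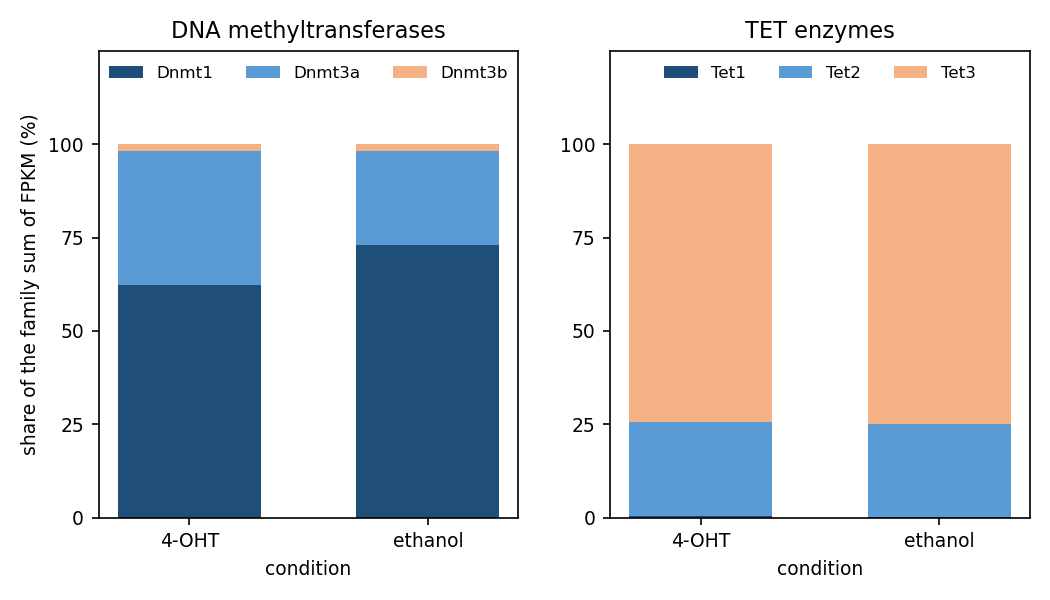
Share of each gene in the summed FPKM of its family, in percent, for DNA methyltransferases (left panel) and TET enzymes (right panel), with 4-OHT left of ethanol. Dnmt1 takes 62.3% in 4-OHT and 73.1% in ethanol, whereas the TET shares are nearly the same in both.

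Tet2 and Tet3 each stood at nearly equal levels in both conditions. Tet3 (chromosome 6, 83312368 to 83391672, mm9) was the most abundant, at 10.6 FPKM in 4-OHT and 10.3 FPKM in ethanol (log2 ratio 0.05). Tet2 (chromosome 3, 133126641 to 133207354, mm9) stood at 3.58 FPKM in 4-OHT and 3.39 FPKM in ethanol (0.06, and -0.11 under quantile normalization). Being within 1.2-fold of equal is common in this table: 35.1% of all compared rows were. Without replicates a small difference in either gene cannot be told from none.

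Tet1 (chromosome 10, 62267318 to 62342762, mm9) was listed at 0.0800 FPKM in 4-OHT and 0.0448 FPKM in ethanol, under the limit of comparison. The TET sum was 14.3 FPKM in 4-OHT and 13.7 FPKM in ethanol, of which Tet3 made up 74.4% and 75.0% and Tet2 25.0% and 24.7%. In every condition the order of levels was Uhrf1, Dnmt1, Dnmt3a, Tet3, Tet2, Dnmt3b and Tet1. No spread is known for any neighbours in that order. No other row of the table overlapped the locus of a member, so none of these values shares its locus with another listed gene.

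**Figure D3:**
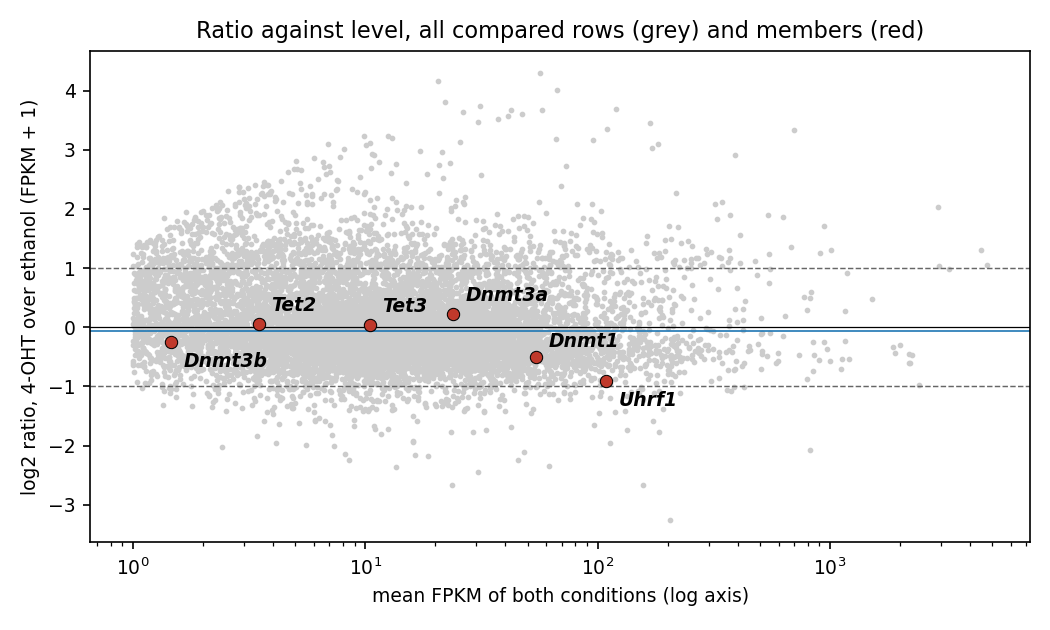
Log2 ratio of 4-OHT over ethanol against the mean FPKM (log axis) for the 10856 compared rows (grey) and the 6 compared members (red); dashed lines mark 2-fold and the blue line the median of all rows, -0.07. Uhrf1 lies at -0.91, just inside the lower 2-fold line, Dnmt1 at -0.50, and the other members between -0.24 and 0.23.

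The gene nearest to Uhrf1 in both levels at once, by distance over the 2 log2 values of 4-OHT and ethanol, was Lmnb1, which encodes lamin B1 of the nuclear envelope (77.3 FPKM in 4-OHT and 149 FPKM in ethanol). In the same order of 4-OHT and ethanol, nearest to Dnmt1 was Bccip (44.4 and 63.0 FPKM), nearest to Dnmt3a was Tmem164 (26.0 and 21.9 FPKM), and nearest to Tet3 was Rest, a transcriptional repressor gene (10.7 and 10.3 FPKM). With 2 values per gene and 8049 candidates, near neighbours exist for almost any level.

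Partners of these enzymes were mostly lower in 4-OHT. Of 15 listed partners 12 could be compared, 11 of them lower and 1 higher, with none at 2-fold. Their median was -0.47, against -0.07 for all compared rows, 55.1% of which were lower. Pcna and Lig1 are also in the list of S phase genes below. Cdca7, whose product recruits and stimulates the chromatin remodeller HELLS, stood at 48.1 FPKM in 4-OHT and 93.9 FPKM in ethanol (-0.95), and Hells, needed for methylation of repeats, at 17.1 and 27.2 FPKM (-0.63). Uhrf2, the paralogue of Uhrf1, stood at 35.2 FPKM in 4-OHT and 56.9 FPKM in ethanol (-0.68).

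Lig1, the ligase of replication that UHRF1 also binds, was at -0.71, and Usp7, a deubiquitinase that binds UHRF1 and DNMT1, at -0.48. Pcna, the replication clamp to which DNMT1 binds, was the most abundant partner, at 232 FPKM in 4-OHT and 313 FPKM in ethanol (-0.43). Among the TET partners, Ogt, the O-GlcNAc transferase gene, stood at -0.45 and Cxxc5 at -0.57. Closest to 0 among the lower partners were Ehmt2, at 56.6 FPKM in 4-OHT and 60.2 FPKM in ethanol (-0.09), Daxx (-0.13) and Ehmt1 (-0.36). The 1 higher partner was Trdmt1, formerly named Dnmt2 and a methyltransferase of transfer RNA. It stood at 1.99 FPKM in 4-OHT and 1.80 FPKM in ethanol (0.10). Of the 13 partners with a promoter window, the same E2F-type letters stood in 2, Cdca7 and Hells.

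Genes of the neighbouring steps were also mostly lower. Of all compared rows 55.1% were lower and the median was -0.07, values to set beside each list below. By level, the median ran from 0.22 for rows with a mean within 1.5-fold of Dnmt3b to -0.19 for those near Uhrf1. Of 10 genes listed as methyl-CpG binding proteins or relatives of them, 8 were lower and 2 higher, with a median of -0.17 and none at 1.5-fold. Mbd3 and Mbd2, subunits of NuRD complexes, were the most abundant, at 77.0 FPKM in 4-OHT and 101 FPKM in ethanol for Mbd3 and at 50.0 and 56.7 FPKM for Mbd2. Zbtb4 was highest by ratio, at 3.58 FPKM in 4-OHT and 2.12 FPKM in ethanol (0.56).

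In the list for excision of oxidised or deaminated cytosine, 10 of 14 compared genes were lower and 4 higher, with a median of -0.53. Mbd4 is in this list and in that of methyl-CpG binding proteins. Tdg, the glycosylase that follows the TET enzymes, stood at 22.6 FPKM in 4-OHT and 31.9 FPKM in ethanol (-0.48), although Tet2 and Tet3 themselves were near equal. The glycosylase gene Neil3 was lowest, at 4.65 FPKM in 4-OHT and 13.5 FPKM in ethanol (-1.36), and Gadd45g, a stress-induced gene, was highest, at 21.1 and 9.55 FPKM (1.07). Parp1 and Xrcc1, of single-strand break repair, were the most abundant, both at -0.62.

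The substrates of both enzyme classes were covered by 2 more lists. S-adenosylmethionine is the methyl donor of the DNMTs, and 6 of 9 compared genes of its cycle were lower and 3 higher (median -0.30). Ahcy, which removes the inhibitory product S-adenosylhomocysteine, stood at 93.7 FPKM in 4-OHT and 221 FPKM in ethanol (-1.23), and Mat2a, which makes the donor, at 73.9 and 111 FPKM (-0.58). Ahcyl2 was highest in this list (0.60). The TET enzymes need 2-oxoglutarate, and 12 of 15 compared genes of its metabolism were lower and 3 higher (median -0.51). The dehydrogenase genes that make it went apart: Idh1, of the cytosol, stood at 88.0 FPKM in 4-OHT and 40.1 FPKM in ethanol (1.12), and Idh2, of mitochondria, at 50.6 and 88.7 FPKM (-0.80). By the mean of both conditions, the most abundant genes of that list were Sdhb, a succinate dehydrogenase subunit gene (-0.42), and Idh3b, of the NAD-linked isocitrate dehydrogenase (-0.51).

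Germline genes that promoter methylation is known to silence were near 0 FPKM in both conditions. Of 21 listed, 20 were matched and none reached the limit of comparison. The highest value in 4-OHT was 0.339 FPKM, for Dpep3, and the highest in ethanol was 0.251 FPKM, for Ddx4; 5 genes were listed at 0 in both conditions. The sum over the list was 0.664 FPKM in 4-OHT and 0.552 FPKM in ethanol. DNA methylation itself was not measured.

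The ratios of Uhrf1 and Dnmt1 lay inside the range of the listed cell cycle genes. All 26 S phase genes were lower in 4-OHT (median -0.68, 3 past 2-fold), as were all 16 genes of G2 and mitosis (median -0.79, 2 past 2-fold). Uhrf1 lay 0.23 below the S phase median, with 5 of the 26 genes lower, and Dnmt1 lay 0.17 above it, with 18 lower. Of the 16 genes of G2 and mitosis, 5 had a lower ratio than Uhrf1 and 14 a lower ratio than Dnmt1. Lists outside the cell cycle also had medians near the Dnmt1 ratio of -0.50, such as 2-oxoglutarate metabolism (-0.51) and excision (-0.53). Dnmt3a, Tet2 and Tet3 stood above each of the 26 S phase genes by ratio. After Pcna, the S phase gene with the highest mean of both conditions was Mcm7, of the replicative helicase, at 62.7 FPKM in 4-OHT and 142 FPKM in ethanol (-1.17). Pole, the replicative polymerase gene, was lowest by ratio (-1.29) and the licensing factor gene Cdt1 highest (-0.11). Among the mitotic genes, Top2a, a topoisomerase gene, had the highest mean of both conditions and the lowest ratio, at 57.2 FPKM in 4-OHT and 131 FPKM in ethanol (-1.18), and the kinase gene Aurka was the highest (-0.01).

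Writers and erasers of histone methylation were lower by less. Of 20 such genes, 16 were lower and 4 higher, with a median of -0.27 and none at 2-fold. Ezh2, the Polycomb methyltransferase gene, was lowest, at 41.5 FPKM in 4-OHT and 69.6 FPKM in ethanol (-0.73), and Kdm5b, a demethylase gene, highest, at 7.69 and 4.51 FPKM (0.66). The most abundant were Ezh2 and its Polycomb partner Suz12 (-0.61).

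Markers of cell types moved in the same comparison. All 12 B-lineage markers were lower in 4-OHT, 7 past 2-fold, and their median ratio was -1.06. Their summed level was 834 FPKM in 4-OHT and 1869 FPKM in ethanol, and no marker was listed at 0. Vpreb3 (242 FPKM in 4-OHT and 509 FPKM in ethanol) and Cd79b (147 and 256 FPKM) were the most abundant by the mean of both conditions, so RNA of the labelled cell type was present in both conditions. Against the B-lineage median, Uhrf1 stood 0.15 higher, Dnmt1 0.56 higher and Dnmt3a 1.29 higher on the log2 scale.

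Over 7 lists of other cell types, 43 of 44 compared markers were higher in 4-OHT. The 9 neutrophil markers compared summed to 3483 FPKM in 4-OHT and 366 FPKM in ethanol (median 3.34), and the 9 macrophage markers to 5801 and 2853 FPKM (median 1.15), without Lyz2, the 1 marker of these lists that is listed at 0. Lyz2 was listed at 0 in 4-OHT and at 3835 FPKM in ethanol, a zero that can be a failed estimate, and with it the macrophage sums were 5801 FPKM in 4-OHT and 6688 FPKM in ethanol. The 9 stromal and endothelial markers summed to 573 FPKM in 4-OHT and 48.4 FPKM in ethanol (median 3.60), and the 8 of megakaryocytes, mast cells and basophils to 1032 and 281 FPKM (median 1.79). Markers of T and natural killer cells (4 compared, median 0.89) and of erythroid cells (1 compared, 1.09) were low. Their sums over the compared markers were 19.5 and 2.13 FPKM in 4-OHT and 3.73 and 0.466 FPKM in ethanol. The compared markers of stem and progenitor cells (5 compared, median 1.34) summed to 90.5 FPKM in 4-OHT and 40.5 FPKM in ethanol. The part of cell makeup and of cell division in the values of the 7 genes was not tested.

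**Figure D4:**
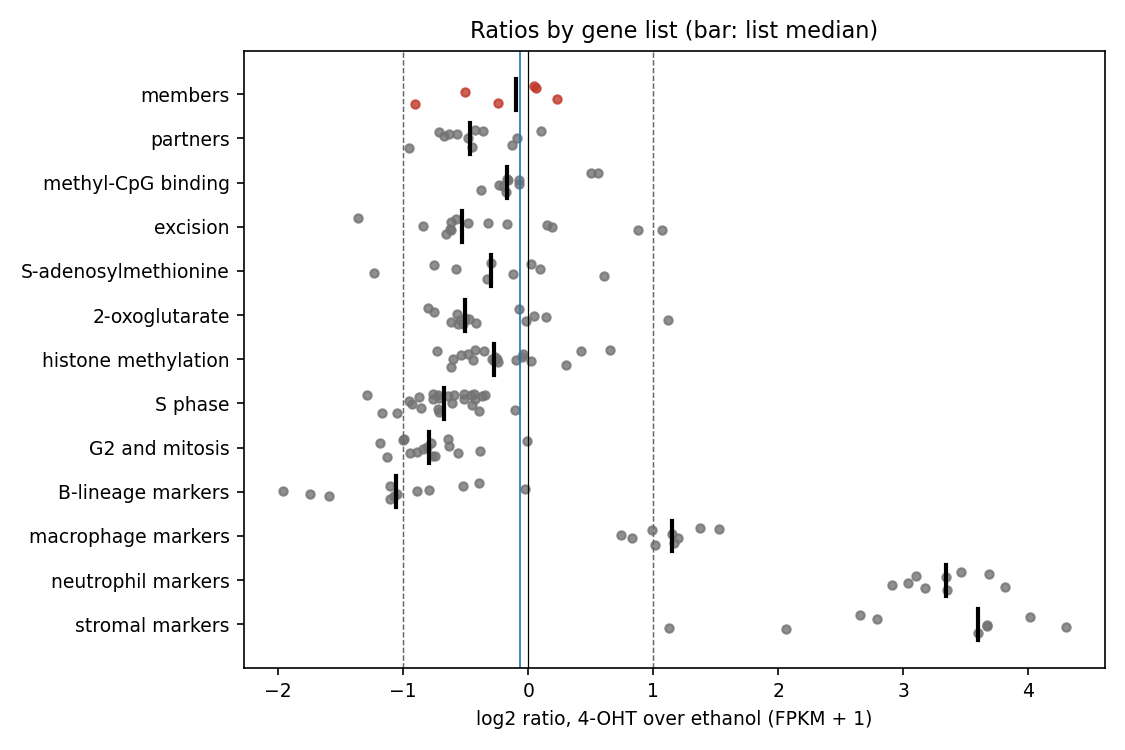
Log2 ratios of 4-OHT over ethanol for each compared gene (points) by list, with list medians as black bars, the members in red at the top, dashed lines at 2-fold and a blue line at the median of all compared rows. The members span -0.91 to 0.23, the S phase genes lie all below 0, the B-lineage markers have a median of -1.06, and the neutrophil and stromal markers lie above 1.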

How the data were processed

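Messenger RNA of 6 libraries was measured by paired-end RNA sequencing from TruSeq libraries, per the labels' protocols. The authors deposited 1 FPKM per gene and condition; the sources used here do not say how libraries were combined or conditions scaled. The submitters' processing notes name build mm9, Cufflinks 2.1.1, TopHat2 2.0.9 and CASAVA. The authors' deposited log2 fold changes matched the plain ratio of the values within 0.01 in all 15756 rows above 0 in both conditions. As the table holds pooled values, the planned limma fit was not run, and differences are described by size. Ratios used a pseudocount of 1 FPKM. The start of each mm9 locus was taken as counted from 0, so 1 was added. With that, 6341 of 18848 matched loci had the length of the RefSeq gene of their name, against 437 without. Most matched loci had neither length. A gene absent by name was sought by its RefSeq synonyms. Promoter windows came from RefSeq (GRCm38.p6), and no coordinates were moved between builds.

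Members and gene lists were chosen with earlier results of these data known. Named genes were the members, Prmt5, Myc, and the 2 most abundant and the highest and lowest genes of a list. These list genes were given for the lists on chromatin, metabolism and the cell cycle. The naming rule also took in all partners, methyl-CpG binding and excision genes, and the nearest rows averaging 5 FPKM or more. Other names were chosen after their values were seen. The ratio was tested on simulated data. Software was pandas 2.3.3, numpy 2.4.6 and matplotlib 3.10.9 under Python 3.11.15.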

Additional observations from a re-analysis of the deposited data

How the results depend on the processing

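The ratios of Uhrf1 (-0.92 to -0.83), Dnmt1 (-0.51 to -0.43), Dnmt3a (0.23 to 0.31), Dnmt3b (-0.56 to -0.20) and Tet3 (0.05 to 0.12) kept their direction and stayed under 2-fold with pseudocounts of 0.1 and 0.5 FPKM, median-of-ratios scaling, quantile normalization and the authors' deposited fold changes. Tet2 was at -0.11 and Tet1 at -0.028 under quantile normalization, and Tet1 was at 0.84 by the authors' deposited fold change; its values are below 0.1 FPKM. Chosen after seeing the data, a 1.5-fold threshold gave 1 lower member and 1390 lower and 2121 higher rows. The count of rows at least 2-fold lower, 280, was 457 with a pseudocount of 0.1 FPKM and 482 by the authors' deposited fold changes, and the count 2-fold higher, 1124, was 700 with a minimum of 5 FPKM, where fewer rows were compared. The median of T and natural killer cell markers was 1.51 with a pseudocount of 0.1 FPKM and 2.48 with a minimum of 5 FPKM, and with no filter the erythroid median was 0.11 and the stem cell median 0.83; these lists hold few expressed genes. No paired analysis was possible because the libraries of a condition are pooled in the table, so the replicate block and leaving out each library were not run. Without counts, precision cannot be stated, and the low values of Tet1 and Dnmt3b carry the least of it.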
